A study of Homo sapiens with 10 samples.

Results

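The integrated stress response and the unfolded protein response were followed through 34 genes in RWPE-1, an immortalised cell line of human prostate epithelium that forms no tumours. The genes were taken from a fixed list of names. A probe set was read only where the platform annotation ties it to exactly 1 gene, which gave 69 of 41097 such probe sets and 34 of 19775 genes. They comprise 10 regulators and feedback genes, 6 enzymes of amino acid synthesis and one-carbon metabolism, 7 amino acid transporters, 4 cytosolic tRNA synthetases and 7 genes of the endoplasmic reticulum (ER). The synthesis, transporter and synthetase genes together are called amino acid supply here, with 17 genes.

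Transcripts were read on 10 arrays of the Affymetrix HG-U133 Plus 2.0 type. The overexpressing cells carried BirA, a biotin ligase, together with ERG (3 arrays) or ETV1 (4 arrays), and control cells expressed BirA alone (3 arrays). All lines were made with MSCV retroviruses and selection for stable clones, and were grown under normal conditions, so BirA, retroviral infection and selection are shared by every group. ERG and ETV1 are ETS transcription factors that gene fusions activate in prostate cancer, and the study asked what each does to transcription when overexpressed. The design text counts 3 biological replicates, whereas 4 arrays carry the ETV1 label, and neither says how many clones stand behind a group. The p-values therefore measure the spread between these arrays, which may be technical, and the number of arrays limits the precision.

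In the integrated stress response, kinases that sense amino acid shortage, ER stress or other stresses phosphorylate the initiation factor eIF2. General translation then falls, while translation of the transcription factor ATF4 rises, and ATF4 switches on genes for amino acid synthesis, uptake and tRNA charging. In the unfolded protein response, misfolded protein in the ER activates IRE1 and ATF6 as well as the eIF2 kinase PERK; IRE1 splices XBP1 mRNA, and XBP1 and ATF6 raise ER chaperones. The deposited values hold transcript levels, with no measure of eIF2 phosphorylation, ATF4 protein or XBP1 splicing.

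The 3 arrays labelled ERG had another distribution of values than the rest. The median probe set read 50.7 ± 2.09 on them (SD, n = 3), against 73.8 ± 2.01 on ETV1 arrays (n = 4) and 72.5 ± 1.05 on control arrays (n = 3), while their 95th percentile was higher, at 2271 ± 60.1, against 1367 ± 72.7 and 1515 ± 236 on the ETV1 and control arrays. The 3 prime over 5 prime ratio of ACTB rises when RNA is degraded or labelling is short. It was 2.94 ± 0.171 on the arrays labelled ERG, 1.26 ± 0.0288 on ETV1 arrays and 1.38 ± 0.0243 on control arrays. For GAPDH the values were 1.005 ± 0.0516, 1.017 ± 0.0253 and 0.916 ± 0.0202, with the groups in that order. By GAPDH the arrays labelled ERG thus lay close to the ETV1 arrays, and RNA degradation was not tested. The ETV1 transcript checked its label: its brightest probe set read 1320 ± 355 on ETV1 arrays and 88.1 ± 29.0 on control arrays. The ERG transcript did not settle its label, since its brightest probe set had 9.43 ± 1.57 on the arrays labelled ERG, against 186 ± 4.61 on control arrays, while another had 36.5 ± 12.3, against 9.04 ± 3.23. All groups carried the basal keratins KRT5 and KRT14 at intensities of at least 5090. The basal genes ITGB4 and LAMB3 read at least 1250 on every array, and the luminal keratins KRT8 and KRT18 at least 1230. KLK3 and TMPRSS2, also luminal, read at most 656 and 108. The summed level of 4 fibroblast markers ranged from 211 to 294 on the arrays labelled ERG, 1070 to 1120 on ETV1 arrays and 920 to 1180 on control arrays, and COL1A2 among them stayed at or below 24.3 on every array. COL1A1 ranged from 105 to 159, 765 to 787 and 619 to 768 in the same groups. DCN ranged from 52.4 to 83.1, 205 to 262 and 251 to 324. Summed endothelial markers (3 of 3) ranged from 170 to 193 on the arrays labelled ERG, 1260 to 1400 on ETV1 arrays and 1370 to 1560 on control arrays, with CDH5 at most 17.5 on any array. PECAM1 among them ranged from 151 to 172, 1170 to 1330 and 1310 to 1490 in the same groups. Summed leukocyte markers (3 of 4) ranged from 58.3 to 106, 213 to 234 and 202 to 280 in the same groups, with PTPRC at most 42.4. CD3E among them ranged from 22.1 to 49.3, 165 to 187 and 147 to 224. Summed neuroendocrine markers (3 of 3) ranged from 109 to 125, 407 to 509 and 359 to 423. The part of these markers in the results was not tested.

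With values as deposited, the ER genes that passed the test in ETV1 cells were all higher than in control cells, while 5 of the 7 amino acid supply genes that passed were lower. Lower genes were also the majority among all genes that passed, with 2242 of 3553. After quantile normalization the passing supply genes were no longer mostly lower. PSPH, GARS1, AARS1, MTHFD2 and SLC1A4 then passed as higher, and PSAT1, PHGDH and SLC1A5 as lower. All 34 genes were bright enough to test. In ETV1 cells 6 passed as higher (PDIA4, EIF4EBP1, HSP90B1, XBP1, PSPH and GARS1), 6 passed as lower (SLC1A5, PSAT1, DDIT3, PHGDH, SHMT2 and SLC3A2) and 22 did not pass, by limma with Benjamini-Hochberg adjustment over 14069 genes at a threshold of 0.05. Of all tested genes 25.3% passed, 9.32% as higher and 15.9% as lower. That background holds many dim genes. Where a gene had to exceed the 75th percentile of the array instead of its median, all 34 genes remained. Of these 7 then passed as higher and 6 as lower, where 1019 and 2109 of 9059 tested genes did. Counting without a test, 10 genes were higher on every ETV1 array than on any control array and 9 were lower, where 13.2% and 20.8% of all tested genes were. The median log2 fold change, ETV1 minus control, was 0.05 over the 34 genes and -0.06 over all tested genes. Of the 7 ER genes 3 passed as higher and none as lower, with a median of 0.48. Among the 17 amino acid supply genes 2 passed as higher and 5 as lower, with a median of -0.22.

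**Figure D1:**
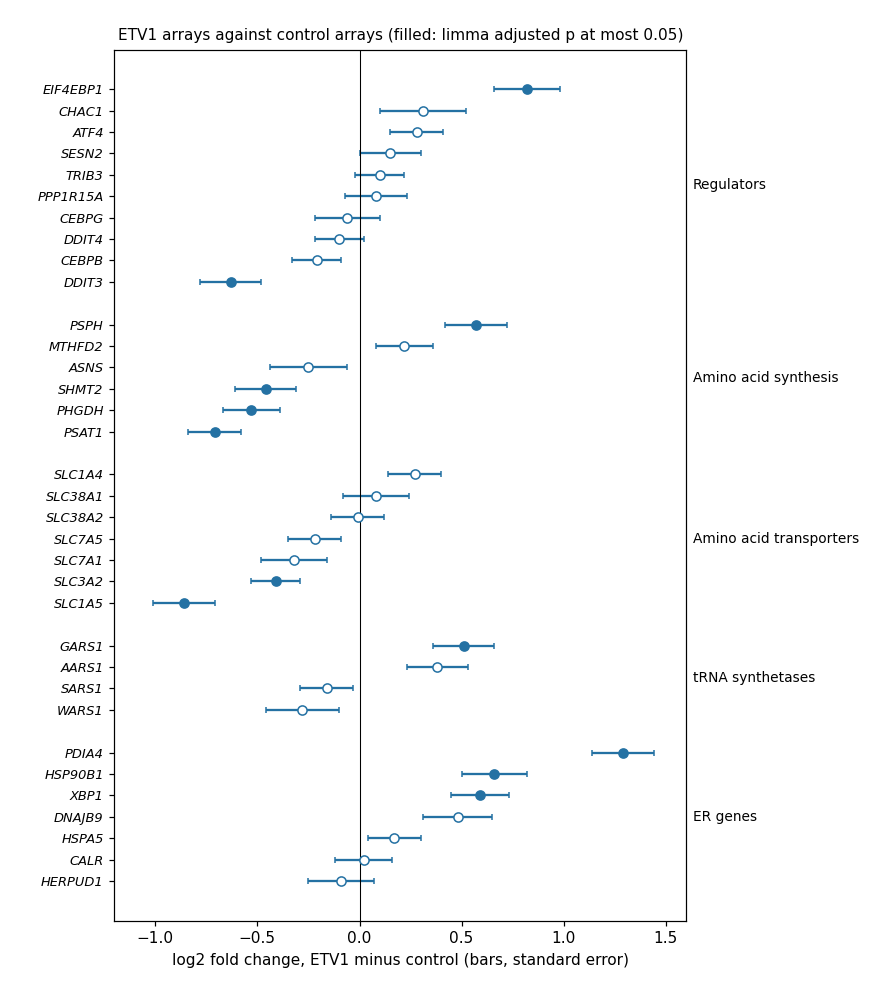
Log2 fold change of each of the 34 genes, ETV1 minus control, on the horizontal axis, by role; bars are standard errors and filled points have a limma adjusted p of at most 0.05. PDIA4 is farthest to the right at 1.29 and SLC1A5 farthest to the left at -0.86.

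PDIA4, an ER protein disulphide isomerase, changed most. It read 1911, 2089, 1960.1 and 2022 on the ETV1 arrays, against 953.9, 828 and 669 on the control arrays. Every ETV1 array lay far above the highest control array. The log2 fold change was 1.29 (SE 0.15, limma adjusted p = 8.1e-06), a 2.44-fold difference. Its dimmer probe set also rose, with 366, 419, 381 and 383 on ETV1 arrays and 297, 244 and 218 on control arrays (log2 fold change 0.59, SE 0.14, limma adjusted p = 0.0059 over 25975 probe sets).

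HSP90B1, the ER chaperone GRP94, read 1158, 1443, 1221 and 993 in ETV1 cells, against 869, 775 and 623 in control cells. The groups did not overlap, and the log2 fold change was 0.66 (SE 0.16, limma adjusted p = 0.005). XBP1, the transcription factor that IRE1 activates, read 2552, 2868, 2698 and 2194 on ETV1 arrays, against 1999, 1682 and 1454 on control arrays. Again all ETV1 arrays were higher, by a log2 fold change of 0.59 (SE 0.14, limma adjusted p = 0.006). That call was lost when the gene's probe sets were averaged (0.34, limma adjusted p = 0.097); the other one read at most 70.8 on any array.

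HSPA5, the abundant ER chaperone BiP, gave 12004, 12958, 12587 and 11155 on ETV1 arrays, against 10750.3, 10836 and 10844 on control arrays. The groups did not overlap, yet the log2 fold change of 0.17 did not pass (SE 0.13, limma adjusted p = 0.38). Its dimmer probe set read 1398, 1426, 1398 and 1081 in ETV1 cells and 909, 867 and 659 in control cells, and passed with a log2 fold change of 0.70 (SE 0.20, limma adjusted p = 0.019). Both probe sets were thus higher on all ETV1 arrays, by different amounts. DNAJB9, an HSPA5 co-chaperone, had a log2 fold change of 0.48 (limma adjusted p = 0.055), while CALR, the lectin chaperone calreticulin, and HERPUD1, a component of ER-associated degradation, had 0.02 and -0.09. These are the brightest probe sets. The dimmer CALR probe sets gave 0.19, which did not pass, and 0.39, which did (limma adjusted p = 0.049).

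The ER stress response element, which ATF6 binds together with NF-Y, was searched in the RefSeq promoter windows (GRCh38.p14, 250 bases before to 50 after a gene's start). Its letters, CCAAT and CCACG with 9 bases between them, sought on both strands, occur in 0.0769% of 35116 windows. They were found at 4 of the 31 genes with a window, all of them ER genes: CALR, HSP90B1, HSPA5 and XBP1. A gene was counted if any of its windows held a match, and some genes, XBP1 among them, have several windows. HERPUD1 holds the related element ATTGG and CCACG with 1 base between, present in 0.0541% of windows, and also the amino acid response element described further on. The stretches below show each match in capitals with the bases around it, to set beside the measured changes; they run 5′ to 3′ in the direction of the gene, and the CALR element and the first run of capitals in HERPUD1, the amino acid response element, lie on the opposite strand.
HSPA5, chr9:125241371-125241429, minus strand: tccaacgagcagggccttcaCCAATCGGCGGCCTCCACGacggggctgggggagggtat
XBP1, chr22:28800583-28800641, minus strand: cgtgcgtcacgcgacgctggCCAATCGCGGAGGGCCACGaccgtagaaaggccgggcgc
CALR, chr19:12938364-12938422, plus strand: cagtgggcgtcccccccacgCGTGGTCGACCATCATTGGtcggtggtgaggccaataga
HERPUD1, chr16:56931946-56932055, plus strand: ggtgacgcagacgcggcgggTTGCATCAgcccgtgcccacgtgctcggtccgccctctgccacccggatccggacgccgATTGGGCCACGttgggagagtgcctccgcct
Of the 4 genes with the longer element, XBP1 and HSP90B1 passed as higher in ETV1 cells, and HSPA5 and CALR did not pass on their brightest probe sets. PDIA4, which changed most, holds none of the searched letters in its windows. The XBP1 element, whose letters are TGACGTGG (0.729% of windows), was found at none of the 31 genes.

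Among the 7 transporters, each read from its brightest probe set, 2 passed as lower in ETV1 cells and none as higher. Of all tested genes 15.9% passed as lower and 9.32% as higher. SLC1A5, the main glutamine importer of many epithelial cells, read 1429, 1779.9, 1552 and 2054 on ETV1 arrays, against 3165, 3292 and 2780.2 on control arrays. No ETV1 array reached the lowest control array, and the log2 fold change was -0.86 (SE 0.15, limma adjusted p = 0.00059). SLC3A2, the heavy chain that carries SLC7A5 to the membrane, had 5325 ± 221 on ETV1 arrays and 7088 ± 138 on control arrays (log2 fold change -0.41, SE 0.12, limma adjusted p = 0.022). The partner SLC7A5, which imports leucine and other large neutral amino acids, did not pass (-0.22, limma adjusted p = 0.24). SLC7A1, SLC1A4, SLC38A1 and SLC38A2, importers of cationic or small neutral amino acids, had log2 fold changes between -0.32 and 0.27. None passed in its brightest probe set with values as deposited. A dimmer probe set passed as higher for SLC7A1 (0.97, limma adjusted p = 0.0028) and for SLC38A1 (0.62, limma adjusted p = 0.014). The other tested probe sets of these genes did not pass.

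Serine synthesis runs through PHGDH, PSAT1 and PSPH in that order, and the 3 enzymes did not move together. PSAT1 read 3720.4, 4686, 4025 and 3829.9 on ETV1 arrays, against 7254, 6662 and 6030.4 on control arrays. PHGDH read 1815, 2132, 2049.6 and 1517 in ETV1 cells, against 2981, 2814 and 2348 in control cells. PSPH, the last step, read 679, 673, 711 and 623 on ETV1 arrays, against 553, 464 and 345 on control arrays. None of the 3 overlapped between the groups, and PSAT1 and PHGDH were lower where PSPH was higher. The log2 fold changes were -0.71 for PSAT1 (SE 0.13, limma adjusted p = 0.001), -0.53 for PHGDH (SE 0.14, limma adjusted p = 0.011) and 0.57 for PSPH (SE 0.15, limma adjusted p = 0.0094). The second PSAT1 probe set fell as well, by 0.64 on the log2 scale, and the second PSPH probe set rose by 1.0.

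SHMT2, which turns serine into glycine in mitochondria, read 3338 ± 566 on ETV1 arrays and 4552 ± 318 on control arrays (log2 fold change -0.46, SE 0.15, limma adjusted p = 0.028). Its other probe sets gave -0.28 and -0.10 and did not pass. ASNS, asparagine synthetase and a standard ATF4 target, read 2086, 2883, 2560.1 and 1537 in ETV1 cells, against 3147, 2527 and 2284 in control cells. The groups overlapped, and the difference of -0.25 did not pass (SE 0.19, limma adjusted p = 0.37). MTHFD2, the mitochondrial folate enzyme, had 0.22 and did not pass with values as deposited.

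Among the synthetases, GARS1, which charges glycine, read 4266, 5454, 5136 and 3966 on ETV1 arrays, against 3845, 3135 and 2913 on control arrays. All ETV1 arrays were higher, the lowest of them by a small margin, and the log2 fold change was 0.51 (SE 0.15, limma adjusted p = 0.022). AARS1, for alanine, had 0.38 (limma adjusted p = 0.071), and WARS1 and SARS1, for tryptophan and serine, had -0.28 and -0.16 without passing.

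Of the 10 regulators 1 passed as higher, 1 as lower and 8 did not pass, where 9.32% and 15.9% of all tested genes passed as higher and lower. ATF4 read 4948, 5770.4, 5357 and 5214 in ETV1 cells, against 4826, 4395 and 3939 in control cells. Its groups did not overlap, but the log2 fold change of 0.28 did not pass (SE 0.13, limma adjusted p = 0.13). After quantile normalization ATF4 did pass, with 0.45 (limma adjusted p = 0.0022), as did TRIB3, with 0.24 (limma adjusted p = 0.042). DDIT3, the stress-induced factor CHOP, read 1117, 1321, 1120.1 and 911 in ETV1 cells, against 1913, 1781 and 1514 in control cells, and fell by 0.63 on the log2 scale (SE 0.15, limma adjusted p = 0.0045). EIF4EBP1, an inhibitor of cap-dependent translation and an ATF4 target, read 2182, 2401, 2119 and 1691 in ETV1 cells, against 1130.1, 1256 and 1129.9 in control cells, a log2 fold change of 0.82 (SE 0.16, limma adjusted p = 0.0013). DDIT3 was thus lower and EIF4EBP1 higher on all 4 ETV1 arrays. CEBPB and CEBPG, dimer partners of ATF4 and CHOP, TRIB3, CHAC1, DDIT4, SESN2 and the eIF2 phosphatase subunit PPP1R15A had log2 fold changes between -0.21 and 0.31. None of these passed with values as deposited, though CEBPB and DDIT4 were lower on every ETV1 array than on any control array.

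**Figure D2:**
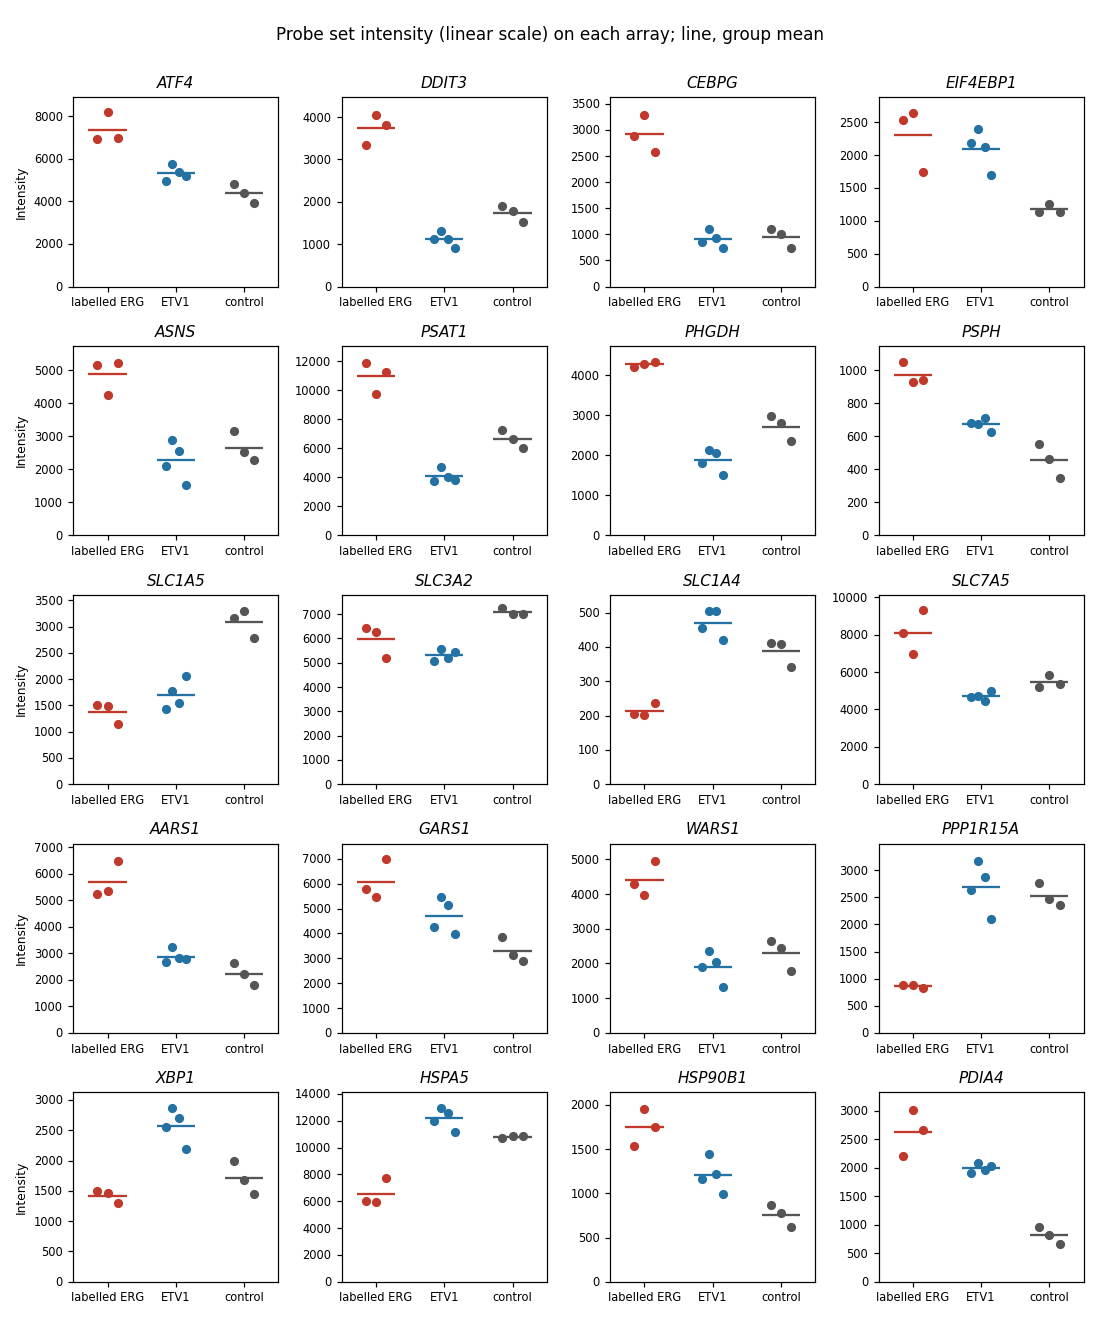
Intensity on each array (vertical axes, linear and starting at 0) of 20 of the 34 genes, for the arrays labelled ERG, ETV1 and control; each point is an array and each line a group mean. PDIA4 lies between 1911 and 2089 on the ETV1 arrays, against 669 to 953.9 on the control arrays, and SLC1A5 is lower on every array labelled ERG and ETV1 than on any control array.

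Averaged per array, the 7 ER genes and the 17 amino acid supply genes separated in ETV1 cells. Each gene's log2 value was set against its mean over the control arrays. The ER mean was 0.43, 0.59, 0.48 and 0.28 on the ETV1 arrays, against 0.17, 0.01 and -0.18 on the control arrays. The amino acid supply mean was -0.18, 0.02, -0.09 and -0.27 on the ETV1 arrays, against 0.15, 0.02 and -0.17 on the control arrays, which overlap. The difference, ER minus supply, was 0.60, 0.57, 0.56 and 0.55 on the ETV1 arrays and 0.02, -0.01 and -0.01 on the control arrays. Among the ETV1 arrays and among the control arrays it varied less than either mean; both means were low together on ETV1 replicate D and control replicate C. On the arrays labelled ERG the difference was -0.22, 0.21 and 0.00, around the control values, and varied more than either mean. These means are descriptions, with no test.

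**Figure D3:**
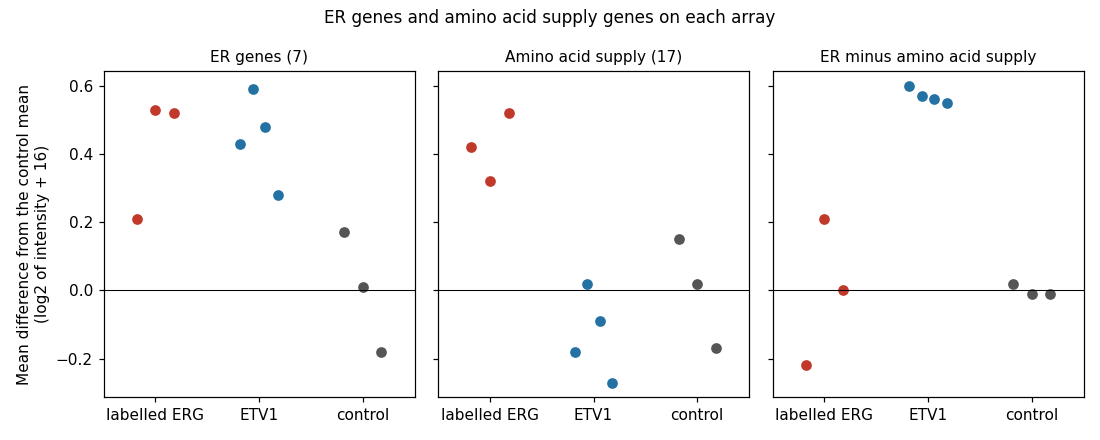
Mean log2 difference from the control mean on each array, for the 7 ER genes, the 17 amino acid supply genes and their difference (vertical axis, log2 of intensity plus 16). The 4 ETV1 arrays lie between 0.55 and 0.60 in the right panel, and the control arrays between -0.01 and 0.02.

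Other genes of the same pathways were counted in 5 lists, where 9.32% of all tested genes passed as higher in ETV1 cells and 15.9% as lower. Of 25 tested ER folding, export and degradation genes, 6 passed as higher in ETV1 cells (SEC24D, EDEM1, SDF2L1, PDIA3, MANF and CRELD2) and 1 as lower (DERL1), with a median log2 fold change of 0.19. SEC24D, a coat component of vesicles leaving the ER, read 478 ± 116 on ETV1 arrays and 168 ± 39.0 on control arrays (log2 fold change 1.41, SE 0.20, limma adjusted p = 7e-05). EDEM1, which marks misfolded glycoproteins for degradation, read 946 ± 88.1 and 434 ± 14.4 (1.09, SE 0.15, limma adjusted p = 4.2e-05). SDF2L1, an ER chaperone partner, had 0.87 (SE 0.17) and DERL1, a channel component of ER-associated degradation, had -0.73 (SE 0.15). With its probe sets averaged SEC24D no longer passed (0.42, limma adjusted p = 0.10).

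Of 12 other cytosolic tRNA synthetases, none passed as higher in ETV1 cells and 4 as lower. For this list and the next ones, the shares over all tested genes were 9.32% and 15.9%. EPRS1, for glutamate and proline, read 1677 ± 171 on ETV1 arrays and 3569 ± 521 on control arrays (log2 fold change -1.08, SE 0.16, limma adjusted p = 0.00012), and FARSB, VARS1 and HARS1 had -0.58, -0.50 and -0.41. Of 12 other amino acid transporters, none passed as higher and 3 as lower: SLC7A8, an exchanger of neutral amino acids (-1.01, SE 0.15), and the proton-coupled SLC36A1 (-0.75) and SLC36A4 (-0.57). Of 12 stress kinases and sensors, none passed as higher and 3 as lower. PPP1R15B, the constitutive eIF2 phosphatase subunit, read 969 ± 27.7 in ETV1 cells and 2149 ± 359 in control cells (log2 fold change -1.12, SE 0.16, limma adjusted p = 7e-05), EIF2S1, the eIF2 subunit that is phosphorylated, had -0.65 (SE 0.13), and ATF6B had -0.43 (SE 0.13). Without control replicate A or B the calls of ATF6B (-0.36 and -0.43), VARS1 (-0.38 and -0.49) and HARS1 (-0.27 and -0.41) were lost, and those of ATF6B and HARS1 also without ETV1 replicate C or D (-0.42 to -0.37). With probe sets averaged FARSB (-0.31), VARS1 (-0.14), SLC36A1 (-0.29) and ATF6B (-0.23) did not pass, nor did EIF2S1 (-0.34) without probe sets ending in _s_at, _x_at or _a_at. HARS1 was lost as well without ETV1 replicate A (-0.39) and without replicate A of the arrays labelled ERG (-0.41).

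Of 16 other ATF4 targets and partners, 5 passed as higher in ETV1 cells and 1 as lower. NUPR1, a stress-induced transcription cofactor, read 2125 ± 299 in ETV1 cells and 1010 ± 216 in control cells (log2 fold change 1.07, SE 0.20, limma adjusted p = 0.00083). CTH, which makes cysteine from cystathionine, had 0.91 (SE 0.15) and SLC6A9, a glycine transporter, 0.89 (SE 0.16); GDF15 and VLDLR passed as well. ALDH18A1, which starts proline synthesis from glutamate, read 437 ± 51.6 in ETV1 cells and 934 ± 187 in control cells (log2 fold change -1.06, SE 0.15, limma adjusted p = 8.3e-05). ATF4 targets outside the ER were therefore found among both the higher and the lower genes. Over these 5 lists 11 of 77 genes passed as higher and 12 as lower, with a median of 0.01. Of all tested genes 9.32% passed as higher and 15.9% as lower. The lower share was near that background, and the higher share was somewhat above it.

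Of the 12 calls between ETV1 and control cells, 7 held under every alternative processing that tested the gene: DDIT3, EIF4EBP1, PSAT1, PSPH, SLC1A5, HSP90B1 and PDIA4. HSP90B1 and PSAT1 could not be tested without probe sets ending in _s_at, _x_at or _a_at. PHGDH, SHMT2, SLC3A2, GARS1 and XBP1 each lost their call under at least 1. Without control replicate A or without control replicate B, PHGDH had -0.46 and -0.50, SHMT2 -0.41 and -0.46 and SLC3A2 -0.40 and -0.42, and none of these passed. GARS1 lost its call without control replicate B, control replicate C, ETV1 replicate B or ETV1 replicate C (0.42 to 0.48), SLC3A2 also without ETV1 replicate A or C (-0.39 and -0.40) and SHMT2 without ETV1 replicate D (-0.33). After quantile normalization 12 of the 34 passed as higher and 4 as lower. Among the supply genes MTHFD2 (0.40), SLC1A4 (0.34) and AARS1 (0.55) then also passed as higher. SHMT2 (-0.25) and SLC3A2 (-0.19) no longer passed as lower. Without the arrays labelled ERG in the model 7 of the 34 passed as higher and 6 as lower.

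The arrays labelled ERG differed from control arrays at most genes of the array, and the scaling decided the direction of many. Of all tested genes 80.4% passed, 48.0% as higher and 32.3% as lower, with a median log2 fold change of 0.30. Among the 34 genes 21 passed as higher and 4 as lower (PPP1R15A, SLC1A5, SLC1A4 and HSPA5), with a median of 0.42. With the 75th percentile filter, which all 34 genes meet, 5286 of 9059 tested genes passed as higher and 1936 as lower. Their median was 0.53, and 21 and 4 of the 34 genes passed. Counted without a test, 21 of them were higher on every array labelled ERG than on any control array and 5 were lower, where 47.2% and 31.6% of all tested genes were. After quantile normalization 7 passed as higher and 14 as lower, and after scaling each array to the same median 27 and 3; the median over all tested genes moved to 0.06 and 0.81. Under every alternative 7 genes held their call: DDIT3, CEBPG, PPP1R15A, PSPH, SLC1A5, SLC1A4 and AARS1. MTHFD2, HSP90B1 and PDIA4 also kept their direction and call under both scalings, but not in every probe set. This comparison shares the 3 control arrays with the previous one.

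**Figure D4:**
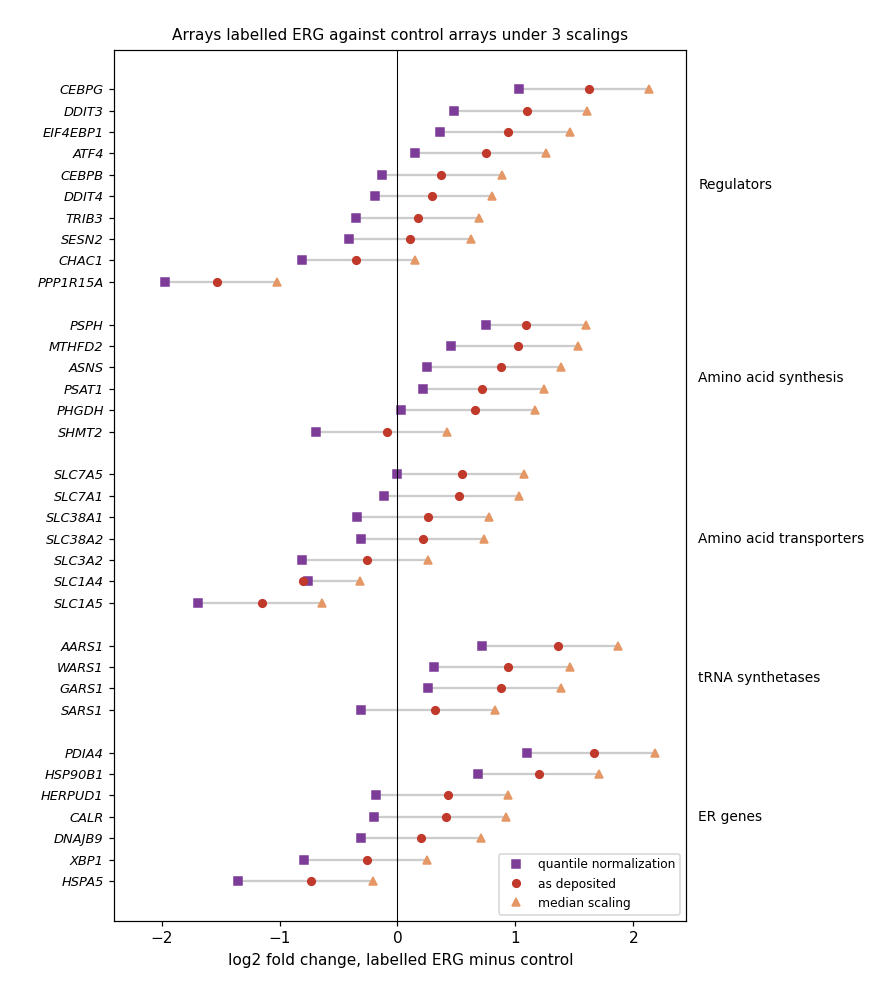
Log2 fold change of each of the 34 genes, arrays labelled ERG minus control arrays, with values as deposited, after quantile normalization and after scaling to the same median. The 3 points of a gene span about the same distance for most genes; CEBPG stays to the right of 0 (1.03 to 2.13) and PPP1R15A to the left (-1.97 to -1.02), while ATF4 runs from 0.15 to 1.26.

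Among the regulators, CEBPG, a partner of ATF4, read 2892, 3296 and 2587 on the arrays labelled ERG, against 1101, 1011 and 739 on control arrays. The groups lay far apart, with a log2 fold change of 1.62 (SE 0.18, limma adjusted p = 2.7e-07), and the second probe set gave 1.21. DDIT3 read 3338, 4061 and 3812 on the arrays labelled ERG, against 1913, 1781 and 1514 on control arrays (log2 fold change 1.10, SE 0.16, limma adjusted p = 6e-06), and 0.48 after quantile normalization. PPP1R15A, the stress-induced eIF2 phosphatase subunit GADD34, read 889.6, 879 and 823 on the arrays labelled ERG, against 2771, 2460.5 and 2364 on control arrays. It was lower on all 3, with a log2 fold change of -1.53 (SE 0.16, limma adjusted p = 1.1e-07) and -1.78 in the second probe set. ATF4 itself read 6916, 8179 and 6989 on the arrays labelled ERG, against 4826, 4395 and 3939 on control arrays (log2 fold change 0.75, SE 0.14, limma adjusted p = 0.0001); after quantile normalization its 0.15 no longer passed.

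EIF4EBP1 passed as higher on the arrays labelled ERG (2305 ± 489, against 1172 ± 72.8 on control arrays, log2 fold change 0.94), but not after quantile normalization (0.36, limma adjusted p = 0.085). CEBPB and DDIT4, a brake on mTOR signalling, passed as higher by 0.37 and 0.29, where the median over all tested genes was 0.30. After quantile normalization the 2 genes turned to -0.13 and -0.19. DDIT4 lost its call without any 1 of control replicates A and B, the 4 ETV1 arrays and replicates A and B of the arrays labelled ERG (0.25 to 0.29). CHAC1, which degrades glutathione, had -0.35 and SESN2, a leucine sensor of the mTOR pathway, had 0.11 in its brightest probe set. Neither passed, while the dimmer SESN2 probe set passed as higher, with 0.56. TRIB3, a pseudokinase that binds ATF4, had 9231 ± 145 on the arrays labelled ERG and 8202 ± 145 on control arrays in its brightest probe set, with 0.17 (limma adjusted p = 0.22). Its second probe set went the other way, with 829 ± 159 and 4859 ± 247.

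The synthesis enzymes were mostly higher on the arrays labelled ERG: 5 of 6 passed as higher, where 48.0% of all tested genes did. With the 75th percentile filter 5286 of 9059 tested genes did. PSPH read 1045, 928 and 942 on those arrays, against 553, 464 and 345 on control arrays (log2 fold change 1.09, SE 0.16, limma adjusted p = 7.3e-06), and its second probe set gave 1.56. ASNS read 5149, 4238 and 5221 on the arrays labelled ERG, against 3147, 2527 and 2284 on control arrays (log2 fold change 0.88, SE 0.20, limma adjusted p = 0.0007), and 0.25 after quantile normalization, which did not pass. PHGDH, with 4274 ± 62.5 and 2714 ± 328, had 0.66 as deposited and 0.03 after quantile normalization. The groups did not overlap for any of these, though only PSPH kept its call under both scalings. MTHFD2 had 1.02, and its dim second probe set -0.75; averaged, the 0.13 did not pass. SHMT2 did not pass in its brightest probe set, with -0.09, while its dimmer probe sets passed as higher, with 0.56 and 0.40.

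PSAT1 shows how far probe sets of a gene parted on the arrays labelled ERG. The brighter probe set read 11908, 9772 and 11260.3 on those arrays, against 7254, 6662 and 6030.4 on control arrays, a log2 fold change of 0.72 that did not pass after quantile normalization (0.22). The dimmer probe set read 807, 845 and 841 on the arrays labelled ERG, against 4216, 4147 and 4074 on control arrays, a log2 fold change of -2.30 (SE 0.14, limma adjusted p = 7.4e-10). Each was tight within its group, and they pointed in opposite directions. Between ETV1 and control cells the same probe sets gave -0.71 and -0.64.

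**Figure D5:**
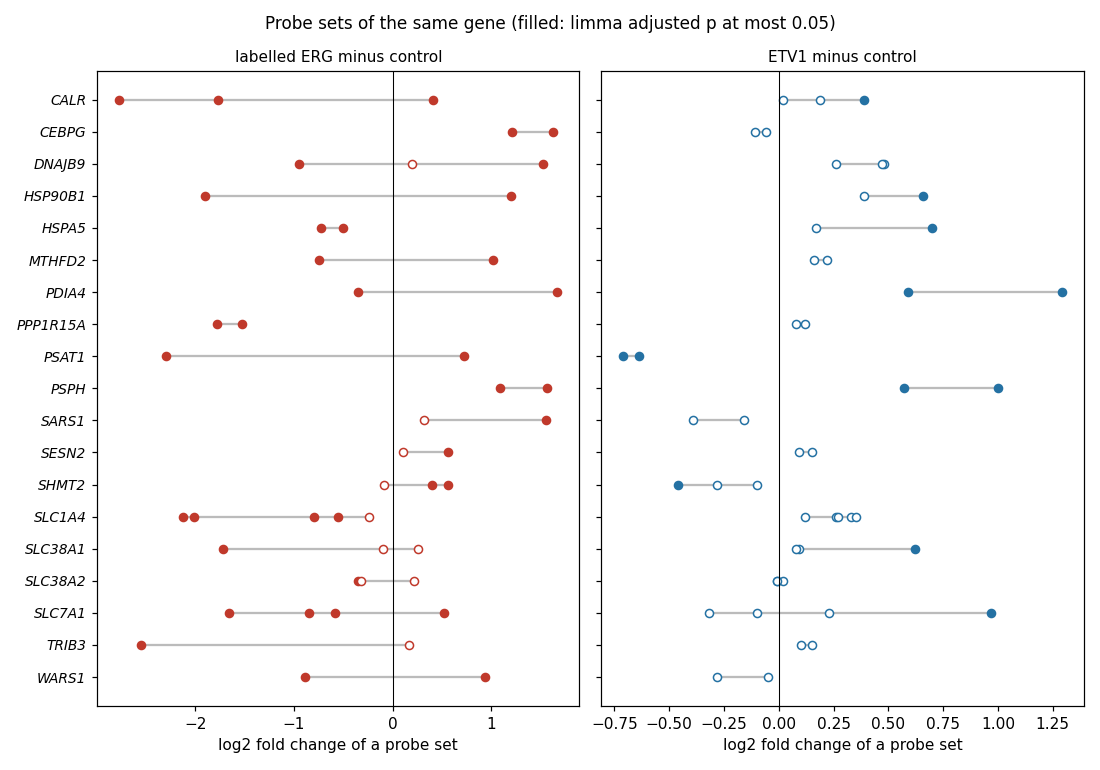
Log2 fold change of each tested probe set of the 19 genes with at least 2, for arrays labelled ERG minus control (left) and ETV1 minus control (right); filled points have a limma adjusted p of at most 0.05, and the horizontal scales differ. Probe sets of a gene lie on one side of 0 for 7 of 19 genes on the left and for 17 of 19 on the right.

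For the 19 genes with at least 2 tested probe sets, all probe sets of a gene had the same sign in 17 genes (89.5%) between ETV1 and control cells, and in 7 (36.8%) between arrays labelled ERG and control arrays. Over all genes with several tested probe sets the shares were 58.2% and 43.0%. Of 14 genes with at least 2 passing probe sets, 8 had them in opposite directions on the arrays labelled ERG (57.1%): CALR, DNAJB9, HSP90B1, MTHFD2, PDIA4, PSAT1, SLC7A1 and WARS1. The same share over all genes was 50.3%, close to that of the stress genes. Between ETV1 and control cells it was 0 of 3 here and 4.01% over all genes. Every value given for these 8 genes on the arrays labelled ERG holds for the probe set named by it or, where none is named, the brightest.

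Transporters were split on the arrays labelled ERG. SLC1A5 read 1513, 1491 and 1141 on those arrays, against 3165, 3292 and 2780.2 on control arrays, a log2 fold change of -1.15 (SE 0.16, limma adjusted p = 5.4e-06), and -1.69 and -0.64 under the other scalings. SLC1A4, a relative that carries alanine and serine, read 206, 202 and 236 on the arrays labelled ERG, against 411, 409 and 341 on control arrays (log2 fold change -0.80, SE 0.14, limma adjusted p = 5.3e-05), and its other 4 probe sets gave -2.12 to -0.24. Both were lower on all 3 arrays. SLC7A5 read 8069.8, 6954 and 9321 on the arrays labelled ERG, against 5220.1, 5862 and 5380.2 on control arrays (log2 fold change 0.55, SE 0.14, limma adjusted p = 0.0016), but the difference was -0.0014 after quantile normalization. SLC7A1 had 0.52 in its brightest probe set and -0.85 in the next. SLC3A2 (-0.26), SLC38A1 (0.26) and SLC38A2 (0.22) did not pass in their brightest probe sets. Dimmer probe sets passed as lower for SLC38A1, with -1.72, and for SLC38A2, with -0.35. The remaining tested ones, with -0.10 and -0.32, did not pass.

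All 4 synthetases passed as higher on the arrays labelled ERG, with a median log2 fold change of 0.91. Of all tested genes 48.0% passed as higher and 32.3% as lower. AARS1 read 5222, 5346 and 6494 on those arrays, against 2654, 2234 and 1794 on control arrays (log2 fold change 1.36, SE 0.16, limma adjusted p = 6.5e-07), and 0.72 after quantile normalization. GARS1 had 0.88 and WARS1 0.94, and SARS1 had 0.32 at the edge of the threshold (limma adjusted p = 0.05). After quantile normalization GARS1 (0.26) and WARS1 (0.31) did not pass, and WARS1 had 0.03 with its probe sets averaged and -0.89 in the dimmer one. Under the same normalization SARS1 had -0.31, and its call was lost without any 1 of control replicates B and C, the 4 ETV1 arrays and replicates B and C of the arrays labelled ERG (0.23 to 0.32). Of 12 other synthetases 8 passed as higher and 2 as lower, with a median of 0.54; KARS1, for lysine, had 0.96 (SE 0.14), NARS1, for asparagine, 0.80 (SE 0.15), and VARS1, for valine, -0.71 (SE 0.15). NARS1 did not pass after quantile normalization (0.17), nor VARS1 after median scaling (-0.20). YARS1, for tyrosine, had 0.92 in its brightest probe set and -0.03 averaged over its probe sets.

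The amino acid response element, which ATF4 and its partners bind, was searched as TGATGNAA on both strands of the same windows. It occurs in 3.62% of the 35116 windows and was found at 11 of the 31 genes, of which 8 belong to amino acid supply (AARS1, ASNS, GARS1, SLC1A4, SLC1A5, SLC38A1, SLC3A2 and SLC7A1), 2 are regulators (CEBPG and CHAC1) and 1 is an ER gene (HERPUD1). The share counts windows and the hits count genes with a match in any window, so they are not directly comparable. ASNS, CEBPG, GARS1, SLC1A4, SLC38A1 and SLC3A2 also have windows without a match. The SLC1A5 match lies in the window chr19:46784765-46785064, and its window chr19:46788545-46788844, farther upstream, holds none. The stretches of 4 genes are shown with the match in capitals, because the genes that hold it did not share a direction; in AARS1 it lies on the opposite strand.
ASNS, chr7:97872449-97872496, minus strand: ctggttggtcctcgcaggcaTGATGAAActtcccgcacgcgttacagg
AARS1, chr16:70289666-70289713, minus strand: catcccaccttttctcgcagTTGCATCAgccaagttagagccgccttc
CEBPG, chr19:33374051-33374098, plus strand: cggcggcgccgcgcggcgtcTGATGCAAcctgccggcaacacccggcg
SLC1A5, chr19:46784884-46784931, minus strand: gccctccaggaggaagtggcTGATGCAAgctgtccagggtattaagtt
On the arrays labelled ERG the brightest probe sets of ASNS, AARS1 and CEBPG were higher and that of SLC1A5 lower. In ETV1 cells SLC1A5 was lower, and the other 3 did not pass with values as deposited. PSAT1, PHGDH and MTHFD2 hold no match in their windows. The ETS letters CCGGAAGT occur in 4.14% of all windows and were found at 3 of the 31 genes, DDIT3, DNAJB9 and WARS1. These matches describe the sequence, and binding was not measured.

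ER genes did not move together on the arrays labelled ERG: 4 of 7 passed as higher and 1 as lower, where 48.0% and 32.3% of all tested genes did. HSPA5 read 6035, 5929 and 7733 on those arrays, against 10750.3, 10836 and 10844 on control arrays (log2 fold change -0.73, SE 0.14, limma adjusted p = 0.00015). Its second probe set, with 588 ± 216 and 812 ± 134, had -0.50, and after median scaling the brightest had -0.21 and did not pass. PDIA4 read 2211, 3012 and 2662 on the arrays labelled ERG, against 953.9, 828 and 669 on control arrays (log2 fold change 1.67, SE 0.16, limma adjusted p = 4.4e-08). The dimmer PDIA4 probe set was lower, with 168, 195 and 220.1 on the arrays labelled ERG and 297, 244 and 218 on control arrays (-0.35). The same held for HSP90B1, with 1.20 in its brightest probe set and -1.90 in the other.

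CALR had 0.41 in its brightest probe set and -1.77 and -2.77 in the others. HERPUD1 passed with 0.43, although 1 array labelled ERG lay within the control range. Without control replicate C and without replicate C of the arrays labelled ERG neither passed: CALR had 0.35 and 0.33, HERPUD1 0.32 and 0.27. CALR also lost its call without replicate B of the arrays labelled ERG (0.34), and HERPUD1 without control replicate B (0.45). XBP1 read 1493, 1468 and 1293 on the arrays labelled ERG, against 1999, 1682 and 1454 on control arrays, with a log2 fold change of -0.26 that did not pass (SE 0.15, limma adjusted p = 0.13). DNAJB9 had 0.20 in its brightest probe set and did not pass, while its dimmer ones passed with -0.95 and 1.52. Of 25 other ER genes 9 passed as higher and 4 as lower, where 48.0% and 32.3% of all tested genes did. SEC24D and EDEM1, both higher in ETV1 cells, had 1.75 (SE 0.21) and 1.39 (SE 0.16) on the arrays labelled ERG, MANF, a secreted ER stress factor, had 1.36 (SE 0.20), and DERL3 had -1.58 (SE 0.16).

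Among the sensors 7 of 12 passed as higher on the arrays labelled ERG and 1 as lower, where 48.0% and 32.3% of all tested genes did. ERN1, the gene of IRE1, read 599 ± 160 on those arrays and 98.7 ± 8.75 on control arrays (log2 fold change 2.39, SE 0.20, limma adjusted p = 1e-08). EIF2AK3, the gene of PERK, had 0.86 (SE 0.17). MBTPS1 and MBTPS2, the proteases that release ATF6 from the membrane, had -1.19 and 1.21, and MBTPS2 had -0.35 averaged over its probe sets. Of 16 other ATF4 targets 7 passed as higher and 5 as lower: CTH had 1.91 (SE 0.16) and ATF3, a stress-induced factor, 1.48 (SE 0.19), while CBS, which makes cystathionine, had -2.32 (SE 0.16). With its probe sets averaged ATF3 had 0.06 and did not pass. STC2, a secreted stress protein, had -3.91 in its brightest probe set and 0.41 in the brightest one left after dropping probe sets whose names end in _s_at, _x_at or _a_at. Of 12 other transporters 4 passed as higher and 5 as lower, from SLC38A5 at -1.69, SLC7A7 at -1.42 and SLC36A4 at -1.05 to SLC38A9 at 1.08. With probe sets averaged SLC36A4 (-0.27) and SLC38A9 (0.32) did not pass. Over the pathway lists together 35 of 77 genes passed as higher and 17 as lower. Their median was 0.26, and that of all tested genes was 0.30.

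Set directly against ETV1 arrays, the arrays labelled ERG had 21 of the 34 genes passing as higher and 5 as lower, where 84.1% of all tested genes passed, 50.7% as higher and 33.4% as lower, and the median over all tested genes was 0.36. The arrays did not overlap for 20 genes that were higher on the arrays labelled ERG and 4 that were lower, where 50.0% and 32.4% of all tested genes were. DDIT3 lay between 3338 and 4061 on the arrays labelled ERG and between 911 and 1321 on ETV1 arrays (log2 fold change 1.73, SE 0.15, limma adjusted p = 9e-09), and CEBPG differed by 1.68 (SE 0.16); both stayed higher after quantile normalization, at 1.0 and 0.99. XBP1 was lower by a log2 fold change of -0.85 (SE 0.14), HSPA5 by -0.90 (SE 0.13) and PPP1R15A by -1.61 (SE 0.15), and the 3 had the same sign under both scalings. After median scaling HSPA5 had -0.36 and still passed, while XBP1 had -0.31 and did not (limma adjusted p = 0.051); with probe sets averaged XBP1 had -0.16 and did not pass. ASNS differed by 1.13 (SE 0.19) and by 0.33 after quantile normalization, which did not pass (limma adjusted p = 0.081). PSAT1 differed by 1.43 in its brightest probe set and by -1.65 in the other. ATF4 had 0.46 (limma adjusted p = 0.0031) as deposited and -0.30 after quantile normalization, so its order between these arrays was not settled. In bulk RNA such as this, fewer cells expressing a gene and less RNA per cell cannot be told apart.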

How the data were processed

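The authors deposited 1 linear intensity per probe set for each of 10 arrays. Per the labels, total RNA was extracted with Trizol and biotin-labelled cRNA was made by the standard Affymetrix protocol; the summarisation and normalization of the intensities are not given in the sources used here. Of 54675 probe sets, 41097 name 1 gene by GEO's platform annotation, 1801 several, 11721 none and 62 are controls. A gene was read from its brightest single-gene probe set on average over all arrays and tested if it exceeded the array median on 3 or more arrays, which left 14069 of 19775 genes. Intensities were used as deposited and tested as log2(intensity + 16), which understates the fold changes of dim genes; 12767 values were exactly 1. Tests used limma (version 3.58.1, lmFit and eBayes, R 4.3.3) two-sided, fitted to the 3 groups together (7 residual degrees of freedom); p-values were adjusted by Benjamini-Hochberg across the tested genes, and genes at 0.05 or below passed. Tests of single probe sets were adjusted over the 25975 tested probe sets.

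The 34 genes, the lists and the tests were chosen with earlier results of these data known. Values were given for all 34, per array for up to 4 passing genes of a role group with the largest change and for ATF4, DDIT3, ASNS, XBP1 and HSPA5, and for up to 4 passing genes of each pathway list and comparison. PHGDH was shown per array because PSAT1 and PSPH are its partners. Tables and plots used Python 3.11.15, pandas 2.3.3, numpy 2.4.6 and matplotlib 3.10.9. On simulated arrays for ETV1 versus control, with 14069 genes, a log2 change of 1 was recovered in 79% and a change of 0.5 in 18% of 100 changed genes each, with 6 false calls. Alternatives covered scaling, filter, probe set choice, pseudocount, limma settings, the arrays in the model, a replicate block and leaving out each array. Promoter windows came from RefSeq (GRCh38.p14). Some genes of the pathway and marker lists were not used here.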

Additional observations from a re-analysis of the deposited data

Results flagged for a closer look

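TRIB3 read 8002.9 on ETV1 replicate D, while the other 3 ETV1 arrays read 8940.3 to 9133. On the log2(intensity + 16) scale the gap to the nearest array was 0.838 of the group's range, above Dixon's critical value for 4 arrays; on the linear scale the ratio lay at that value. Chance flags about 1 in 20 groups, and 34 genes were examined. TRIB3 did not pass between ETV1 and control cells with values as deposited.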

How the results depend on the processing

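Between ETV1 and control cells no gene that passed as reported changed direction under the alternatives run. Among genes that did not pass, SLC7A1 (-0.32) had 0.20 with probe sets averaged, and others with values near 0 also changed sign. Genes of the 34 passing as higher numbered 12 after quantile normalization and 10 with every probe set tested, against 6 as reported; those passing as lower numbered 3 without probe sets ending in _s_at, _x_at or _a_at, where only 24 of the 34 genes remain tested, and 3 with a replicate block, against 6. Leaving out each array gave 3 to 6 lower genes, 3 without control replicate A or without control replicate B, and 2274 (without control replicate B) to 4158 (without control replicate C) passing genes in all, against 3553. The share of higher genes among those passing, 36.9%, was 51.8% without control replicate A, and leaving out control replicate C gave 24.3%. PHGDH lost its call in the replicate block and without control replicate A or B; SLC3A2 in these, after quantile normalization and without ETV1 replicate A or C; SHMT2 after quantile normalization, with no filter, in both other choices of probe set named here, in the replicate block and without control A, control B or ETV1 D; GARS1 without control B, control C, ETV1 B or ETV1 C.

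For arrays labelled ERG against control arrays, the higher genes numbered 7 after quantile normalization and 12 of the 24 genes tested without the _s_at, _x_at and _a_at probe sets (21 of 34 as reported), and the lower genes 14 after quantile normalization, 8 with probe sets averaged, 7 without the 3 kinds of probe set and 7 with every probe set (4 as reported). Against ETV1 arrays the higher genes numbered 5 and 12 under the first pair of settings (21 as reported), and the lower 20 after quantile normalization, 3 after median scaling, 9 averaged, 8 without the 3 kinds and 8 with every probe set (5 as reported). With a 75th percentile filter 7222 and 7637 genes passed in these comparisons, against 11308 and 11828, with fewer genes tested. The share of higher genes, 59.8% and 60.3%, moved to 72.8% and 72.3% after median scaling and to 73.2% and 73.8% with that filter.

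Directions that turned for arrays labelled ERG minus control were, after quantile normalization, CEBPB -0.13, TRIB3 -0.35, DDIT4 -0.19, SESN2 -0.41, SLC7A5 -0.0014, SLC7A1 -0.11, SLC38A1 -0.34, SLC38A2 -0.31, SARS1 -0.31, HERPUD1 -0.18 and CALR -0.20. After median scaling SHMT2 had 0.42. With probe sets averaged TRIB3 had -1.19, PSAT1 -0.79, SLC7A1 -0.62, HSP90B1 -0.35, CALR -1.38, MBTPS2 -0.35 and YARS1 -0.03. Without the 3 kinds of probe set SHMT2 had 0.56, SLC7A1 -0.85, PDIA4 -0.35, CALR -2.77, STC2 0.41 and YARS1 -0.99. Against ETV1 arrays ATF4 turned to -0.30 after quantile normalization and PSAT1 to -0.11 averaged. The cause was not tested.

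The replicate letters share only a name: deviations of same-letter arrays correlated between -0.09 and 0.09. With the replicate block 3158 genes passed between ETV1 and control cells, with 7 of the 34 higher and 3 lower.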

Other observations

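Of the probe sets on the arrays, 3 name one of the 34 genes beside another gene and were not used above. Those shared by HSP90B1 and MIR3652 read 3614 ± 137 and 7816 ± 1250 on the arrays labelled ERG, 4574 ± 617 and 5890 ± 870 on ETV1 arrays, and 3217 ± 441 and 4353 ± 471 on control arrays (SD, n = 3, 4 and 3). Both were brighter than the HSP90B1 probe sets reported. The probe set shared by PHGDH, MZT2A and MZT2B read 10960 ± 2000 on the arrays labelled ERG, 4966 ± 352 on ETV1 arrays and 6611 ± 320 on control arrays, the order in which PHGDH alone was found.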
